A study of Mus musculus with 2 samples.

Results

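The genes described here are 10 genes for proteins that neutrophils store in granules or hold in their cytosol: Mpo, Elane, Prtn3, Ctsg, Ltf, Camp, Ngp, Lcn2, S100a8 and S100a9. They were chosen by name and not by a threshold on their values, but with earlier results of these data known. All 10 were found among the 55536 Ensembl genes of the GENCODE M21 gene quantification of both libraries. They fall into a primary class of 4 genes (Mpo, Elane, Prtn3, Ctsg), a secondary class of 4 (Ltf, Camp, Ngp, Lcn2) and a late class of 2 (S100a8, S100a9). The libraries are polyadenylated RNA from healthy mouse embryonic liver of the B6NCrl strain at 12.5 days of development. Replicate 1 came from livers of 120 embryos and replicate 2 from livers of 88 embryos, each a pool of both sexes, and both used 10 ng of RNA with ERCC spike-ins added. There is a single group, so no treatment, genotype or age was compared, and every spread below is between 2 pools. The labels number the pools as separate biological replicates but give both the same donor entry, so the SD may not hold all of the biological spread.

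A neutrophil makes its granule proteins in sequence as it matures in the bone marrow or, before birth, in the fetal liver. Primary (azurophil) granules are filled first, at the promyelocyte stage, with myeloperoxidase and the neutrophil serine proteases. Secondary (specific) granules follow at the myelocyte stage with lactoferrin, cathelicidin and lipocalin 2, and S100a8 and S100a9, whose products pair to form the metal-binding cytosolic complex calprotectin, are transcribed strongly in maturing myeloid cells. In RNA from a whole organ, fewer cells of a type and less RNA per cell cannot be told apart.

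All 10 genes had reads in both libraries. Their summed level was 584.59 and 672.05 TPM (a level per transcript length, scaled to a fixed total) in replicates 1 and 2, or 0.0585% and 0.0672% of all TPM, on 19130 and 19757 expected counts. At a mean of 1 TPM or more stood 10 of the 10, at 10 TPM or more 9 and at 100 TPM or more 3, beside 54.5%, 32.1% and 5.40% of 21951 protein-coding genes. The late class led with 48.5% and 51.9% of the 10-gene TPM, the primary class held 37.8% and 34.3%, and the secondary class 13.7% and 13.8%.

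The DNA before the start sites was searched for the cores of 2 myeloid factor motifs, and stretches are printed for genes of each class that hold a match. A search of the 250 bases before each RefSeq start site (GRCm38.p6) used the letters GAGGAA, the core bound by the myeloid factor PU.1, and TTNNGNAA, a core of the sites bound by C/EBP factors, on both strands. All 10 genes had a promoter in the RefSeq table, 1 each. GAGGAA was found before 4 of 4 primary, 2 of 4 secondary (Ltf, Lcn2) and 1 of 2 late genes (S100a8), 7 of 10 in all, beside 23.3% of 32851 promoters of the same length. TTNNGNAA was found before 0 of 4 primary, 3 of 4 secondary (Ltf, Ngp, Lcn2) and 2 of 2 late genes, 5 of 10 in all, beside 36.8% of promoters. No difference between the classes was tested. A match to these letters is a description of the sequence and not a measured binding site. Of the primary genes, Mpo, Elane and Prtn3 are printed 5′ to 3′, with each match in capitals, for GAGGAA read on the gene's own strand. Each stretch ends where the first annotated protein-coding transcript with 1% or more of the gene's TPM, or the RefSeq transcript, begins.
Mpo (chr11:87793534-87793580, plus strand): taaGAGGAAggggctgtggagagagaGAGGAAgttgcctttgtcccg
Elane (chr10:79886062-79886246, plus strand): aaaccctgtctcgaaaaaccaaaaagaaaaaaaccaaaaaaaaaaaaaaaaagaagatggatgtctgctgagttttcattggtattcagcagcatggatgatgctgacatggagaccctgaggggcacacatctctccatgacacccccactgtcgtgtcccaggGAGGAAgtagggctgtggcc
Prtn3 (chr10:79879417-79879613, plus strand): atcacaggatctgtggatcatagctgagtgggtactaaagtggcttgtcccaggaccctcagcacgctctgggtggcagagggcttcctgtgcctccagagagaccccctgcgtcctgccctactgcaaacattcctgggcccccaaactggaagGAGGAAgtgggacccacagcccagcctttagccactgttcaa

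The matches began 247 and 224 bases before the RefSeq start in Mpo, 85 in Elane, 95 in Prtn3 and 216 in Ctsg, all on the strand of the gene. Mpo-203, which holds most of Mpo's TPM, starts 425 bases after the RefSeq start, and Prtn3-204, the leading transcript of Prtn3, 1313 bases after it, so the windows of Mpo and Prtn3 are not those before their leading transcripts. In the next stretches, chosen for their matches to TTNNGNAA, capitals mark matches to both motifs on either strand. On the opposite strand GAGGAA reads TTCCTC and TTNNGNAA reads TTNCNNAA, as in Ngp and S100a9.
Ltf (chr9:111019042-111019291, plus strand): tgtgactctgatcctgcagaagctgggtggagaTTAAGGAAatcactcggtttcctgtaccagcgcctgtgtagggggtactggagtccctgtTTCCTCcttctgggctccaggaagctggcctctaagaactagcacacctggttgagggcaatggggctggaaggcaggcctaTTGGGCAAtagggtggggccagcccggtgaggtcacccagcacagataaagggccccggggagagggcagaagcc
Ngp (chr9:110419558-110419746, plus strand): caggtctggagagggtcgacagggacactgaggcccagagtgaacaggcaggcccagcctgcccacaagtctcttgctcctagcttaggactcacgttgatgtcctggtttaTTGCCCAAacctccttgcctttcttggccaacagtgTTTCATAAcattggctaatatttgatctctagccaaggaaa
S100a8 (chr3:90668821-90668977, plus strand): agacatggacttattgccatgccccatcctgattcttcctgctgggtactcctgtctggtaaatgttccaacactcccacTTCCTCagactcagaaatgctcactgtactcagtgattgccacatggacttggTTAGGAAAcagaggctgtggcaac
S100a9 (chr3:90695722-90695971, minus strand): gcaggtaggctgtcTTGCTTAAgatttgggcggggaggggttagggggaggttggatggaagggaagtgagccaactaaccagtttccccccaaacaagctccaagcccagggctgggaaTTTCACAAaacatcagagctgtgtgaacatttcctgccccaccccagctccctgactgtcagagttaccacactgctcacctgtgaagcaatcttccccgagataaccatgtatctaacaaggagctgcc

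In Ltf the TTNNGNAA matches began 217 and 75 bases before the start. Ngp had matches at 138, 102 and 11 bases, of which the last lies past the stretch printed, S100a8 had 1 at 117 bases and S100a9 had 2, at 236 and 130 bases. Lcn2 held 1 match to each motif, TTNNGNAA at 216 bases and GAGGAA at 20. The GAGGAA match of Lcn2 at 20 bases and 1 of the pair in S100a8, at 36, lie within the leading annotated transcript, as does the last match of Ngp. Camp held no match to either, which says only that these letters are not in its window. Of the 250 bases of that window, 161 lie within the span of Camp-201, its only annotated transcript.

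Mpo encodes myeloperoxidase, the haem enzyme that makes hypochlorous acid, and led the primary class. It stood at 175.03 TPM in replicate 1 and 181.10 TPM in replicate 2 (178 ± 4.29 TPM, SD, n = 2) on 11309 and 11155 counts. Those levels were at percentiles 97.0 and 97.3 of protein-coding genes. Prtn3, the gene of proteinase 3, stood at 32.35 and 32.10 TPM (32.2 ± 0.177). Elane, the gene of neutrophil elastase, stood at 10.14 and 12.89 TPM (11.5 ± 1.94). Ctsg, the gene of cathepsin G, was the lowest of the 10 at 3.39 and 4.43 TPM (3.91 ± 0.735), on 93 and 118 counts. The order Mpo, Prtn3, Elane, Ctsg held in both libraries without overlap. Mpo alone made up 79.2% and 78.6% of the class's TPM. The 3 serine proteases together came to 45.88 and 49.42 TPM, with Prtn3 3.19 and 2.49 times Elane and Elane 2.99 and 2.91 times Ctsg.

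The secondary class was more even. Ngp, the gene of neutrophilic granule protein, was its highest at 32.14 and 36.30 TPM (34.2 ± 2.94). Camp, the gene of the cathelicidin antimicrobial peptide, stood at 21.14 and 26.24 TPM (23.7 ± 3.61). Under M21 both values of Ngp lay above both of Camp, and those of Camp above the rest of the class, but under GENCODE M4 the ranges of Ngp (35.34 and 39.86 TPM) and Camp (28.78 and 35.62) overlapped. Ltf, the gene of the iron-binding protein lactoferrin, stood at 14.23 and 15.62 TPM (14.9 ± 0.983). Lcn2, whose product lipocalin 2 captures bacterial iron carriers, stood at 12.78 and 14.80 TPM (13.8 ± 1.43). Each gene held between 15.9% and 40.0% of the class's TPM, and Ngp was 1.52 and 1.38 times Camp.

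S100a8 and S100a9 encode the 2 subunits of calprotectin. S100a8 stood at 174.97 and 203.74 TPM (189 ± 20.3) on 2213 and 2386 counts. S100a9 stood at 108.42 and 144.83 TPM (127 ± 25.7) on 1465 and 1814 counts. S100a8 was the higher in both libraries, by 1.61 and 1.41 times, and its 2 values lay above both of S100a9.

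**Figure D1:**
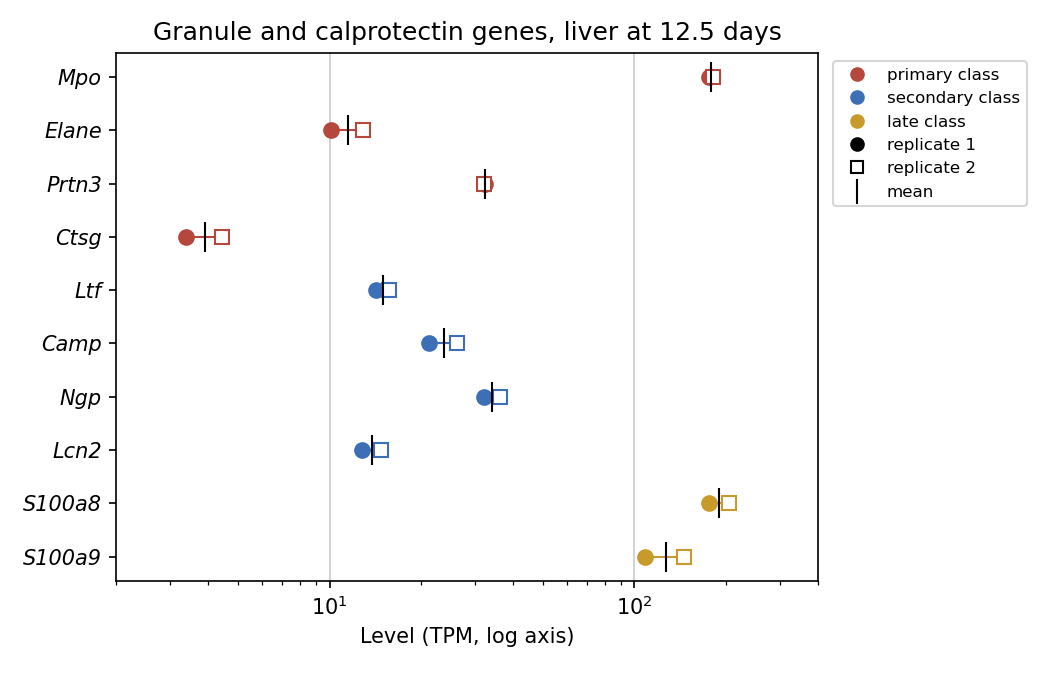
Level of each gene in TPM (log axis) in replicate 1 (filled circle) and replicate 2 (open square), with the mean as a bar and the class as colour. Mpo, S100a8 and S100a9 lie above 100 TPM, and Ctsg alone lies below 10 TPM in both libraries.

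Set in order of their means, neighbours were called apart where both libraries of one lay above both libraries of the other, which held for 5 of 9 neighbouring pairs. S100a8 and Mpo were not apart, since their values in replicate 1 were 174.97 and 175.03 TPM. S100a9 followed below both. Ngp and Prtn3 were not apart, and Camp was apart below them under M21. Under M4 its range overlapped both, though Camp stayed below Ngp within each library. Camp lay above Prtn3 when only protein-coding transcripts were counted. Ltf and Lcn2 were not apart, nor were Lcn2 and Elane, and Ctsg was apart at the low end. Within each library, however, Ltf was 1.11 and 1.06 times Lcn2, and Lcn2 1.26 and 1.15 times Elane. On gene totals under M21 the genes of the primary and secondary classes were thus interleaved, with Prtn3 beside Ngp and Elane beside Lcn2.

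The contrast of the classes was made on summed TPM in each library. The primary class came to 220.91 and 230.52 TPM (226 ± 6.80), the secondary class to 80.29 and 92.96 TPM (86.6 ± 8.96) and the late class to 283.39 and 348.57 TPM (316 ± 46.1). The ranges of the 3 classes did not overlap. The primary sum was 2.62 ± 0.192 times the secondary (log2 ratio 1.46 and 1.31), the late sum 1.40 ± 0.162 times the primary (0.36 and 0.60) and the late sum 3.64 ± 0.156 times the secondary (1.82 and 1.91). A sum in which Mpo holds most of the primary class follows Mpo. Without Mpo, an alternative added after the values were seen, the log2 ratio of primary to secondary turned to -0.86, and the secondary class was 1.75 and 1.88 times the 3 serine proteases. The class medians were 21.9 ± 0.884 TPM for primary and 19.3 ± 2.29 TPM for secondary, so that a median put the log2 ratio at 0.18. The late class was above the secondary class by every summary computed. In reads, which are not corrected for length, the late to primary log2 ratio turned to -1.66: Mpo transcripts average 2077 bases and those of S100a8 486 bases in replicate 1, and Mpo had 5.11 and 4.68 times the counts of S100a8 at nearly the same TPM.

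**Figure D2:**
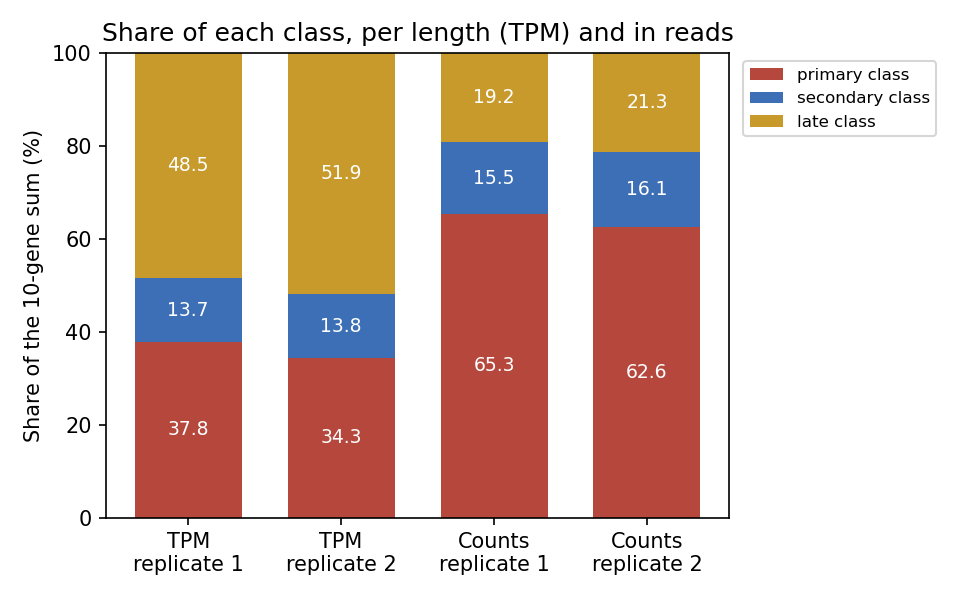
Share of the 10-gene sum (%) held by each class in each library, in TPM (left pair of bars) and in expected counts (right pair). The late class holds 48.5% and 51.9% of TPM but 19.2% and 21.3% of counts.

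Transcripts divided the genes further. Elane, Camp and Ngp have 1 annotated transcript each, and in S100a8, S100a9, Mpo and Lcn2 protein-coding transcripts held 97.7% or more of the TPM. Prtn3 differed: Prtn3-204, annotated as a retained intron, held 57.6% and 46.9% of the gene's TPM, and the coding transcript Prtn3-201 held 34.3% and 41.4%. Counted by protein-coding transcripts alone, Prtn3 stood at 11.47 and 13.28 TPM (12.4 ± 1.28), beside 10.14 and 12.89 TPM for Elane, and the ranges of the 2 genes overlapped. On the gene's total the ranges had been apart. The 3′ parts of Prtn3-201 and Prtn3-204 end at the same base, and the counts of 336 and 372 against 418 and 313 rest on how reads were divided among transcripts.

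In Ltf a short transcript annotated for nonsense-mediated decay, Ltf-211 of 373 bases, took 18.8% and 11.4% of the TPM on 23.9 and 14.8 counts, while Ltf-201 held 97.0% and 97.6% of the counts. Mpo-203 held 75.1% and 79.6% of Mpo's TPM and 87.7% and 90.3% of its counts. The 640-base Mpo-205 held 18.3% and 14.5% of the TPM on 5.00% and 3.86% of the counts. For Ltf and Mpo, short transcripts with a small share of the gene's counts therefore weigh more in TPM than in reads. S100a9-202, which begins 10 bases before S100a9-201, held 9.47% and 16.05% of S100a9's TPM.

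**Figure D3:**
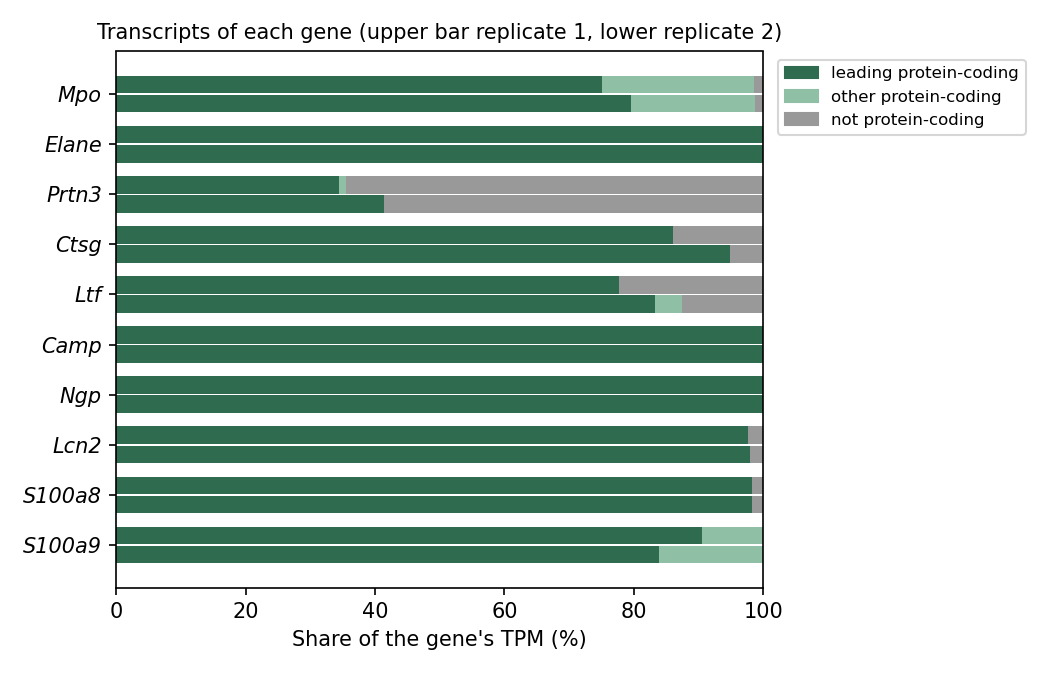
Share of each gene's TPM (%) held by its leading protein-coding transcript, its other protein-coding transcripts and its transcripts of other types, with replicate 1 as the upper and replicate 2 as the lower bar. Prtn3 is the gene with most of its TPM outside protein-coding transcripts, 64.5% and 58.6%.

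Between the pools, the 10 genes had ratios under 2-fold, most of them higher in replicate 2. Counts were scaled by TMM, and each ratio of replicate 2 to replicate 1 has an exact (Clopper-Pearson) 95% interval of the split of counts. It covers the counting error of reads only and holds no spread between pools. PCR copies of a molecule were not told apart, so the interval may be too narrow even for counting error. None of the 10 passed 2-fold with the interval outside the scaled split, 0 of 10 beside 2.39% of 17369 genes. The interval lay above no difference for 8 of 10, beside 11.2% of genes, and below it for 0 of 10, beside 11.3% of genes. These shares are not matched for depth, since the interval narrows with counts. All genes were tested down to a mean of 10 counts, and the 10 genes had means from 105.5 (Ctsg) to 11232 (Mpo). The 2 genes whose interval included no difference were Prtn3, with a log2 ratio of 0.03 (-0.12 to 0.18), and Lcn2, with 0.21 (-0.01 to 0.42).

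S100a9 had 1465 against 1814 counts, a log2 ratio of 0.42 (0.32 to 0.52) or 1.34-fold, and 7.80% of genes had a ratio as high or higher. Mpo, with the most reads, had 0.09 (0.06 to 0.13) and S100a8 0.22 (0.14 to 0.31). Ctsg had the largest point value, 0.45, and the widest interval, 0.05 to 0.86. All 10 ratios were above 0, beside 49.0% of all genes, with a median of 0.22 against -0.0033 for all genes. On the scale of the spike-ins the median of all genes stood lower, at -0.12. There 8 of the 10 were above 0, Mpo stood at -0.03, Prtn3 at -0.09 and 4 intervals lay above no difference. The shares of all genes on that scale are not given here, so these counts have no background beside them.

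Most eosinophil markers moved the same way between the pools: 7 of 9 were higher in replicate 2, with Prg2 at 23.24 and 66.13 TPM. Ccr3 (0.04 and 0.02 TPM) and Il5ra (0.21 and 0.17 TPM) were lower. The sum of the 9 was 38.16 and 107.04 TPM. The part of that difference in the ratios of the 10 genes was not tested. The sums of macrophage markers (156 and 150 TPM) and monocyte markers (21.1 and 21.2 TPM) were close between the pools, at 0.961 and 1.00 times in replicate 2. Other neutrophil genes were mixed. The sum of other primary granule genes was 1.00 times in replicate 2 (6 higher, 4 lower). That of other secondary and tertiary granule genes was 1.06 times (8 higher, 3 lower). That of the neutrophil's surface and late maturation was 1.16 times (7 higher, 7 lower).

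**Figure D4:**
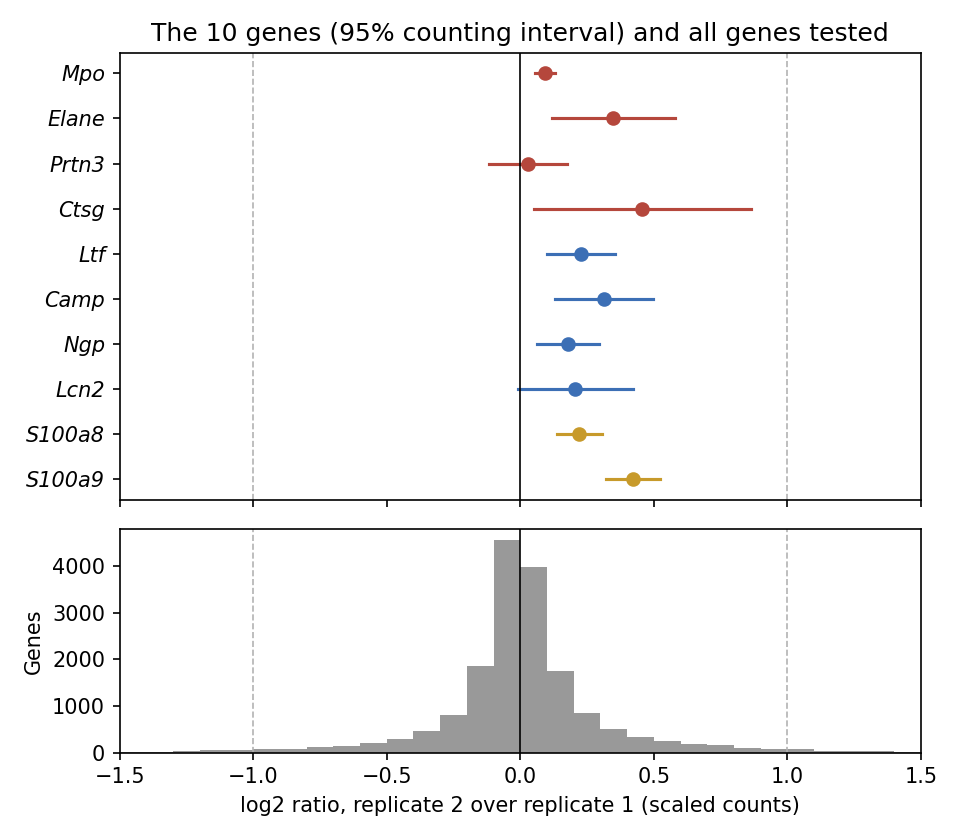
Upper panel, log2 ratio of scaled counts in replicate 2 over replicate 1 for each gene with its 95% counting interval (primary class red, secondary blue, late yellow). Lower panel, the number of genes at each ratio among all 17369 tested (those within the axis), with dashed lines at 2-fold. All 10 points lie above 0 on the TMM scale and within the 2-fold lines. When spike-ins set the scale 2 fall below 0, and the median of all genes is -0.12.

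The same reads were also quantified against GENCODE M4. No gene of the 10 passed a 1.5-fold change in the same direction in both libraries, 0 of 10 beside 5.51% of 13235 genes. Camp and S100a8 came nearest. S100a8 stood at 236.59 and 275.38 TPM under M4, 1.35 times its M21 level in both libraries, with counts that differed by 1.47% at most. Its M4 length was 392 bases in place of 486 (effective length 293 in place of 387). Camp stood at 28.78 and 35.62 TPM, 1.36 times its M21 level, with a length of 599 bases in place of 758 (effective length 500 in place of 659). Ltf was lower under M4, at 0.829 and 0.885 times. The median gene was at 1.04 times. Under M4 both values of S100a8 lay above both of Mpo (182.76 and 189.09 TPM), so the tie of these genes at the top of the order holds for M21. Lower in the order, Camp under M4 overlapped Ngp (35.34 and 39.86 TPM) and Prtn3 (33.62 and 33.40 TPM), from which it was apart under M21. Ltf (11.80 and 13.82 TPM) was lower under M4 than Lcn2 (13.26 and 15.36 TPM) within each library, the reverse of M21. Their ranges across libraries overlapped under both annotations.

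**Figure D5:**
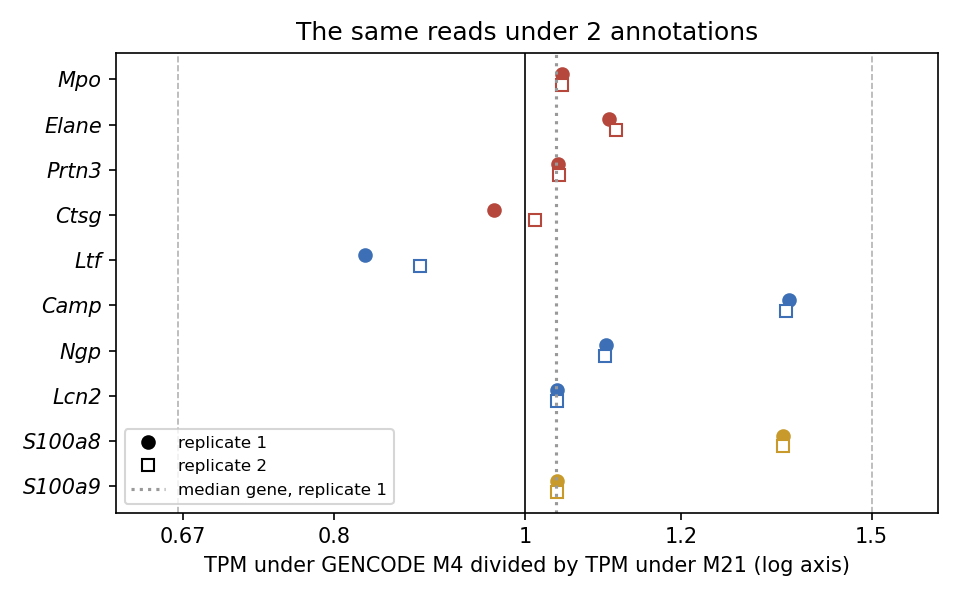
TPM under GENCODE M4 divided by TPM under M21 for each gene (log axis), replicate 1 as filled and replicate 2 as open symbols, with the primary class in red, the secondary in blue and the late in yellow, with dashed lines at 1.5-fold and the median gene dotted. Camp and S100a8 sit at 1.36 and 1.35, and Ltf alone lies below 1 in both libraries.

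Several of the genes are neighbours in the genome (mm10, GENCODE M21). Prtn3 (chr10:79874476-79883174) and Elane (chr10:79886247-79888215) lie on the plus strand 3073 bases apart, and the next coding gene after Elane, Cfd, had 0 counts in both libraries, which allows up to 3 counts in each. On the other side, Ptbp1 stood at a mean of 175 TPM. S100a8 (chr3:90668978-90670035, plus strand) and S100a9 (chr3:90692632-90695721, minus strand) lie 22597 bases apart, and the coding genes flanking the pair, S100a7a and Pglyrp4, had 0 counts. Camp (chr9:109847379-109849617), Ngp (chr9:110419747-110423012) and Ltf (chr9:111019271-111042767) lie within 1 stretch of chromosome 9, with 0.570 Mb between Camp and Ngp and 0.596 Mb between Ngp and Ltf. Genes on both sides of these 3 were expressed too. Beside Camp, Nme6 and Cdc25a stood at means of 50.3 and 29.8 TPM. Ptpn23 and Klhl18 beside Ngp stood at 5.56 and 3.1 TPM, and Rtp3 and Ccrl2 beside Ltf at 6.21 and 10.8 TPM.

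Mpo (chr11:87793581-87804413) lies 2015 bases from Lpo, the gene of lactoperoxidase, which had 0 and 1 counts, and 7653 bases on its other side from Tspoap1, at a mean of 5.08 TPM. Ctsg (chr14:56099881-56102574) lies between Mcpt8, with 4 and 0 counts, and Gzme, with 0. Lcn2 (chr2:32384633-32388252) lies between Ptges2, at a mean of 16.9 TPM, and 1110008P14Rik, at 32.2 TPM. Whether counting used strand is not stated, so reads of Mpo cannot be told apart from those of the antisense gene Gm11505 (32.9 and 28.4 counts), nor reads at the 5′ end of Prtn3 from those of Plppr3 (581 and 628 counts). Of the Prtn3 transcripts only Prtn3-202, which is not protein-coding and had 16.5 and 37.2 counts, reaches Plppr3.

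Related members were distinct as sequences. The coding sequences of Elane and Prtn3 were identical at 66.2% of aligned bases, those of Elane and Ctsg at 63.9%, of Prtn3 and Ctsg at 64.3%, of S100a8 and S100a9 at 60.7% and of Camp and Ngp at 56.5%. The deposited posterior SD of each gene's count, which reflects reads that fit more than 1 place, was at most 0.123% of the count in any of the 10.

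Other genes of the same granules, from lists drawn up with earlier results of these data known, were counted at the same thresholds by their mean over the 2 libraries. Of 10 other primary granule genes, 9 stood at 1 TPM or more and 5 at 10 or more, with a median of 19.7 TPM. The highest were Cd63 (107 TPM), Lyz2 (98.6), the gene of lysozyme, and Srgn (47.0), the granule proteoglycan, all of which are also made in other cells, and Prss57 (1.51) and Bpi (0.010) were lowest. Of 12 other secondary and tertiary granule genes, 7 stood at 1 TPM or more and 0 at 10 or more, with a median of 2.18 TPM. Haptoglobin (Hp, 8.94 TPM), Pglyrp1 (7.90) and Olfm4 (6.10) led, of which Hp is also a hepatic acute phase gene, and Lrg1 (0.315) and Chil3 (0.020) were lowest. The collagenase and gelatinase genes Mmp8 and Mmp9, named after their values were seen, stood at 0.975 and 1.59 TPM. All 4 secondary members were thus above each of these 12.

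Of 14 genes of the neutrophil's surface and late maturation, 6 stood at 1 TPM or more and 1 at 10 or more, with a median of 0.675 TPM. Highest were Itgb2 (11.5 TPM), Stfa2l1 (9.07) and Csf3r (2.36), the receptor of granulocyte colony-stimulating factor, and Fpr2 (0.240) and Ly6g (0.075) were lowest. Itgb2 and Stfa2l1 overlapped Elane in level, and both lay above Ctsg. Ly6g, the usual surface marker of mature mouse neutrophils, had few reads beside S100a8 and S100a9. Of 13 other S100 genes, 7 stood at 1 TPM or more, led by S100a11 (135 TPM), S100a10 (74.9) and S100a16 (27.5), and S100a5 and S100z were listed at 0. S100a8 at 189 TPM was thus above each S100 relative on the list, and S100a9 overlapped S100a11 (132.67 and 137.62 TPM).

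Among regulators, 10 of 12 myeloid transcription factor genes stood at 1 TPM or more, with Myb (20.5 TPM), Zeb2 (19.4) and Cebpb (18.9) highest and Gfi1 (0.730) and Klf4 (0.490) lowest. Named after their values were seen, Spi1, the gene of PU.1, stood at 14.7 TPM, Cebpa at 9.69 and Cebpe, which drives secondary granule genes, at 2.92. The part of hepatoblasts, erythroid cells and other cells in the levels of these 12 regulators was not tested. All 6 NADPH oxidase genes stood at 1 TPM or more, from Cyba (129 TPM), Rac2 (74.8) and Ncf4 (28.8) to Ncf1 (7.35) and Cybb (2.77), the catalytic subunit. Of 10 inhibitors of granule proteases, 9 stood at 1 TPM or more, led by the α1-antitrypsin genes Serpina1b (300 TPM), Serpina1a (186) and Serpina1d (53.9), which hepatocytes secrete and whose near-identical copies make the division of reads among them uncertain, with Serpina3g (1.35) and Serpina3n (0.010) lowest. The summed inhibitors came to 635 and 639 TPM, beside 45.88 and 49.42 TPM for the 3 serine proteases. Most of the inhibitor sum lay in the α1-antitrypsin genes. Outside them the highest, named after their values were seen, were Slpi (10.9 TPM), Serpinb6a (10.7) and Serpinb1a (9.30). Of 6 receptors of calprotectin and lipocalin 2, Bsg stood at 860 TPM, Cd36 at 8.92 and Slc22a17 at 4.96, and Ager (1.16) and Lrp2 (0.160) were lowest.

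Lcn2 and the calprotectin genes are also made by other cells. Of 11 hepatic acute phase genes, 5 stood at 1 TPM or more and 1 at 10 or more (Lbp, 11.4), their sum was 38.0 and 37.5 TPM, and Orm2 (0.025) and Orm1 (0) were lowest. Of 8 squamous epithelium markers, 2 stood at 1 TPM or more (Krt10, 4.73, and Krt14, 1.18), their sum was 5.68 and 6.91 TPM, and Krt6a and Krt13 had 0 counts. Among blood cells, macrophage markers came to 156 and 150 TPM (9 of 10 at 1 TPM or more), monocyte markers to 21.1 and 21.2 TPM (6 of 7), and mast cell and basophil markers to 9.44 and 9.00 TPM (2 of 8). The part of hepatic, squamous and other blood cells in the levels of Lcn2, S100a8, S100a9 and the other members was not tested. The tissue label was matched by its markers, since 7 of 7 hepatoblast and 7 of 7 erythroid genes stood at 10 TPM or more, and lymphoid markers were low, at 5.14 and 4.38 TPM in sum. Depth was 38293265 and 35399872 expected counts.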

How the data were processed

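The deposited gene and transcript quantifications of 2 liver libraries were used. Per the labels, RNA was purified with mirVana, cDNA was made with SMARTer Ultra Low chemistry and libraries by Nextera tagmentation. Expected counts are the authors' division of reads among genes (whole or fractional), deposited unscaled, at 38293265 and 35399872 per library. TPM is deposited per effective length and, per the file headers, has a posterior mean and an interval. The deposited percent of each transcript in its gene was recomputed here. The posterior SD is as deposited. The aligner, the quantifier and the strand setting were not given in the sources used here. The build is mm10, per the labels, and the annotation GENCODE M21, or M4 where named. TPM totals include spike-ins, at 4.99% and 5.40%. The 26249 entries without a gene identifier held 0.000139% and 0.000124% of counts and, like the 96 spike-ins, stayed out of library sizes.

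Members, classes, lists, tests and alternatives were chosen with earlier results of these data known. Named were all members, the 3 highest and up to 2 lowest genes of each list and the nearest coding neighbours. Further genes are named in the text as chosen after seeing values, and Prg2, Ccr3, Krt6a and Krt13 were likewise. Levels are means ± SD over 2 libraries, whose spread is between pools, and with 1 group no p-value is given. For the library ratio, counts were rounded, scaled by TMM (edgeR 4.0.16, R 4.3.3), filtered at a mean of 10 and given a prior count of 0.5, and DESeq2 1.42.0 size factors were an alternative. The procedure was tested on simulated data with counting error only, without spread between pools, for changes larger than those of the 10 genes. Coding sequences of GENCODE M21 were aligned with Biopython 1.88 in place of proteins, which were not used here. Promoters are from RefSeq (GRCm38.p6).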

Additional observations from a re-analysis of the deposited data

How the results depend on the processing

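Of the 10 levels, all stayed within 1 SD without replicate 1 and without replicate 2, as a mean of 2 values must. Under M4 6 moved beyond the spread between libraries, under rescaling to annotated genes 2, under the posterior mean 1 (Ltf, 17.6 TPM) and with protein-coding transcripts only 2 (Prtn3 and Ltf, both 12.4 TPM). The number of members at 10 TPM or more was 9 and the number differing between the libraries 0 under every alternative run. The class ratios depended on the summary more than on the library. The log2 ratio of primary to secondary (1.39) was 0.18 by class median, 0.21 by mean log2(TPM + 1), 2.02 in summed counts, 1.64 both with Lcn2 left out and with Lcn2 in the late class, and -0.86 without Mpo. That of late to primary (0.48) was 0.71 under M4, 2.85 by median, 2.66 by mean log2, -1.66 in counts, where long Mpo transcripts give more reads, and 2.72 without Mpo. That of late to secondary (1.86) was 2.00 under M4, 3.03 by median, 2.87 by mean log2, 0.35 in counts, 2.11 with Lcn2 left out and 2.18 with Lcn2 in the late class. Leaving out 1 replicate gave 1.31 to 1.46, 0.36 to 0.60 and 1.82 to 1.91. Beyond transcript length and class membership, the cause was not tested. Leaving out Mpo and counting coding transcripts only were chosen after seeing the data. Over all genes, the number differing was 415, against 754 of 27707 without the filter and 766 at 1.5-fold. No paired analysis was possible because there is 1 group. Depth limits Ctsg most, at 93 and 118 counts.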
